A study of Mus musculus with 24 samples.

Results

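H2-M3 and 9 genes of the major histocompatibility complex (MHC) class I pathway were followed through 24 RNA sequencing libraries of mouse embryonic stem cells. The 10 genes, of 19953 in the table, were the rows named H2-M3, H2-K1, H2-D1, H2-T23, B2m, Tap1, Tap2, Tapbp, Psmb8 and Psmb9. H2-M3 was chosen by its fall after loss of Mll2 at day 4, so its day 4 values are given as a description, without a test. The other 9 were named as class I chains and antigen processing genes. All values here are normalized counts, read counts divided by 1 size factor per library.

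The cells were wild type (WT), Mll1-KO, Mll2-KO or double-KO, each at day 0 and day 4, with 3 libraries in each of the 8 groups. Mll1 (Kmt2a) and Mll2 (Kmt2b) encode enzymes that methylate lysine 4 of histone H3. Mll1-KO cells were made by CRISPR editing of a line carrying a Cre-inducible Mll2 knockout, and Mll2-KO and double-KO cells had received 4-hydroxytamoxifen (4-OHT) at 800 nM for 48 h. WT and Mll1-KO cells are labelled untreated, so in every comparison loss of Mll2 and exposure to 4-OHT cannot be told apart. Day 0 cells grew with leukemia inhibitory factor (LIF) and 15% fetal bovine serum, and day 4 cells had 4 days of 1 µM retinoic acid in 10% serum, with no LIF listed. The labels state neither the number of clones nor whether the 3 libraries of a group came from separate cultures, so each p-value measures the spread between these libraries, which may be technical.

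Class I molecules display peptides from inside the cell to T cells and natural killer cells. A heavy chain pairs with beta-2-microglobulin (B2m) and takes up a peptide that the proteasome has cut and the TAP transporter has carried into the endoplasmic reticulum, where tapasin (Tapbp) holds the empty chain beside TAP. H2-K1 and H2-D1 are the classical chains, while H2-M3 presents N-formylated peptides and H2-T23 (Qa-1) presents leader peptides of other class I chains. Embryonic stem cells are known for low class I expression that increases as they differentiate.

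The promoter sequences are shown for 3 genes, because class I chains and B2m are known for a shared arrangement of regulatory letters before the start site. RefSeq promoters (GRCm38.p6) were found for 9 of the 10 genes. Each window held the 250 bases before the start, and bases that GENCODE M21 marks as exon were left off, which removed 14 bases for H2-M3, 1 for B2m and none for H2-K1. Capitals mark matches, on either strand, to the core of an interferon response element (GAAANNGAA), a kappa B site (GGGANNCCC), a Y box (CCAAT) and the core of an X2 or CRE site (TGACG). The H2-M3 stretch is chr17:37269984-37270219 on the plus strand, that of H2-K1 is chr17:34000348-34000597 on the minus strand and that of B2m is chr2:122147437-122147685 on the plus strand.
H2-M3: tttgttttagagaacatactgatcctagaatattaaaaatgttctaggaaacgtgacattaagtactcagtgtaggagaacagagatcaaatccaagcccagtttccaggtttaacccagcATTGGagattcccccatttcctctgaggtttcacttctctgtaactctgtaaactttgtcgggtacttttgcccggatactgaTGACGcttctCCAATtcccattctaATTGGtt
H2-K1: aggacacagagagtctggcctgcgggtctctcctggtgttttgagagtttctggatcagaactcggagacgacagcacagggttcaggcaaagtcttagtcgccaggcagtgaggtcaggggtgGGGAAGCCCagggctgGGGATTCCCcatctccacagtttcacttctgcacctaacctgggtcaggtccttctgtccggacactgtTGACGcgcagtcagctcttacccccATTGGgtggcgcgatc
B2m: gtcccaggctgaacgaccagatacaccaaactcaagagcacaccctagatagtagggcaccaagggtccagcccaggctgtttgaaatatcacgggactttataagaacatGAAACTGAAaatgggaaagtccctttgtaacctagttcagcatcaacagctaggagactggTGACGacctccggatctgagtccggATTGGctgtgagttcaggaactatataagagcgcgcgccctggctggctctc

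In the full windows, TGACG with a Y box on either strand closer to the start occurred in H2-M3, H2-K1, H2-D1, B2m and Psmb9. TGACG lay 46 bases before the start of H2-M3 with Y boxes at 36 and 21, 41 before that of H2-K1 with a Y box at 16, and 78 before that of B2m with a Y box at 53. In Psmb9 these letters lay farther apart, at 144 and 8, and the Psmb8 window held none of the 4 motifs. GGGANNCCC occurred 3 times in the windows of H2-K1 and H2-D1, counting a palindrome on both strands, and not in that of H2-M3. The core GAAANNGAA was found in B2m and H2-T23 and not in H2-M3, H2-K1 or H2-D1. Only these exact letters and spacing were searched, so the windows without a match may still hold another form of an interferon response element. The H2-M3 and H2-K1 windows shared a run of 11 letters, GTTTCACTTCT, which H2-D1 also held and which 0.0517% of 32851 RefSeq windows hold on either strand. That run was looked for after the windows had been seen. Among all windows, 7.13% held GAAANNGAA, 4.76% GGGANNCCC, 33.8% CCAAT and 17.8% TGACG. The H2-M3 window had 5 CpG, more than in 44.4% of windows, against 9 for H2-K1, 14 for H2-D1 and 8 for B2m. GENCODE M21 marks all 250 bases of the H2-D1, Tap1, Tapbp, Psmb8 and Psmb9 windows and 154 of H2-T23 as exon, of any gene on either strand. The H2-D1, Tapbp, Psmb8 and Psmb9 windows and part of that of H2-T23 lie within the annotated gene, so letters there are not upstream of it. The Tap1 window lies before the annotated Tap1 start at 34187553, apart from its last bases. The window of Tap1 (chr17:34187306-34187555, plus strand) and that of Psmb9 (chr17:34187331-34187580, minus strand) overlap, since these genes start back to back.

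B2m lies on chromosome 2 (122147686 to 122153083, mm10) and the other 9 genes on chromosome 17, with H2-M3 at 37270220 to 37274484 on the plus strand. All 10 are annotated as protein coding. H2-K1 (33996017 to 34000347), Tapbp (33915899 to 33929292), Psmb9 (34181987 to 34187764), Tap1 (34187553 to 34197225), Psmb8 (34197721 to 34201454) and Tap2 (34203527 to 34216321) sit near each other. H2-D1 (35262730 to 35267499) and H2-T23 (36029773 to 36032855) lie between them and H2-M3. The class I chains have near-identical copies, and how reads were shared among copies and strands is not given in the sources used here, so the values of H2-K1, H2-D1, H2-T23 and H2-M3 are uncertain to that extent.

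Over the series, library depth ran from 10.7 to 22.8 M reads, lower at day 4. Kmt2a counts were 20.6 to 132 in the 12 libraries labelled Mll1-KO or double-KO and 1047 to 2436 in the other 12. Kmt2b counts were 2099 to 3701 in all groups, and a count over the whole gene checks nothing on a deletion within it, so Mll2-KO stands here for the label. Of 8 pluripotency markers all averaged at least 10 in every group, with summed counts of 104751 to 120528 at day 0. Their sums at day 4 were 5408 to 6669 in WT, 2839 to 3242 in Mll1-KO, 8079.8 to 9269 in Mll2-KO and 4277 to 4504 in double-KO. Sums of 9 extraembryonic endoderm markers at day 4 were 23678 to 24073 in WT, 10777 to 11719.9 in Mll1-KO, 30065 to 31365 in Mll2-KO and 16351 to 17253 in double-KO, with none at 0. The blood marker Ptprc was at 0 in all 12 day 4 libraries. Of the 7 measured blood and immune markers 2 averaged at least 10 in day 4 WT, Csf1r at 132 and Cd68 at 68.1. In day 0 WT these averaged 1.02 and 137. At day 4 the 7 measured blood and immune markers summed to 111 to 292, and 6 endothelial markers to 239 to 504. Sums of 9 mesenchyme markers were 7018 to 10264 in WT, Mll1-KO and Mll2-KO and 15533 to 16317 in double-KO, and 7 neural markers summed to 3449.7 to 6641. Most of the mesenchyme sum was the collagen gene Col3a1, which averaged 5050.3 in day 4 WT and 12626 in day 4 double-KO. In these bulk libraries fewer cells of a type and less RNA per cell cannot be told apart. Scaling each library to the same total moved the median of all genes between days from 0.044 to 0.166 (log2) in WT, 0.061 to 0.294 in Mll1-KO and 0.044 to 0.164 in double-KO. It also moved the higher calls, as a share of all calls, from 53.2% to 38.9% for Mll1-KO against WT at day 0, from 46.2% to 60.3% for Mll1-KO against WT at day 4, from 55.6% to 34.5% for Mll2-KO against WT at day 4, from 54.2% to 41.4% for double-KO against WT at day 4, from 56.7% to 36.2% for double-KO against Mll1-KO at day 4, and from 49% to 38.1% for double-KO against Mll2-KO at day 0. For the change of the Mll1 effect between days that share moved from 44% to 64.7%, and for the change of the Mll2 effect from 53.2% to 37.5%.

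Compared per kilobase of exon, B2m had the highest level of the 10 genes in WT cells on both days. In day 0 WT it stood at 321 ± 12.4 normalized counts per kilobase (SD, n = 3 libraries, as for every such value below), followed by H2-K1 at 287 ± 18.8. H2-D1 at 126 ± 3.5 and Tapbp at 119 ± 12.5 did not differ beyond their spread. Tap1 followed at 65.1 ± 7.03, Psmb9 at 36.1 ± 8.57, H2-M3 at 24.9 ± 2.4 and Tap2 at 9.38 ± 1.94. Psmb8 at 1.88 ± 0.796 and H2-T23 at 0.87 ± 0.307 were lowest. In day 4 WT the order was B2m at 2086 ± 80.6, H2-K1 at 667 ± 30.1, Tapbp at 492 ± 20.3, H2-D1 at 385 ± 20.1 and Tap1 at 165 ± 12.6. H2-M3 was at 43.8 ± 7.67, Tap2 at 24.5 ± 1.77 and H2-T23 at 3.01 ± 2.27, while Psmb8 at 15.3 ± 2.22 and Psmb9 at 13.7 ± 3.87 overlapped.

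**Figure D1:**
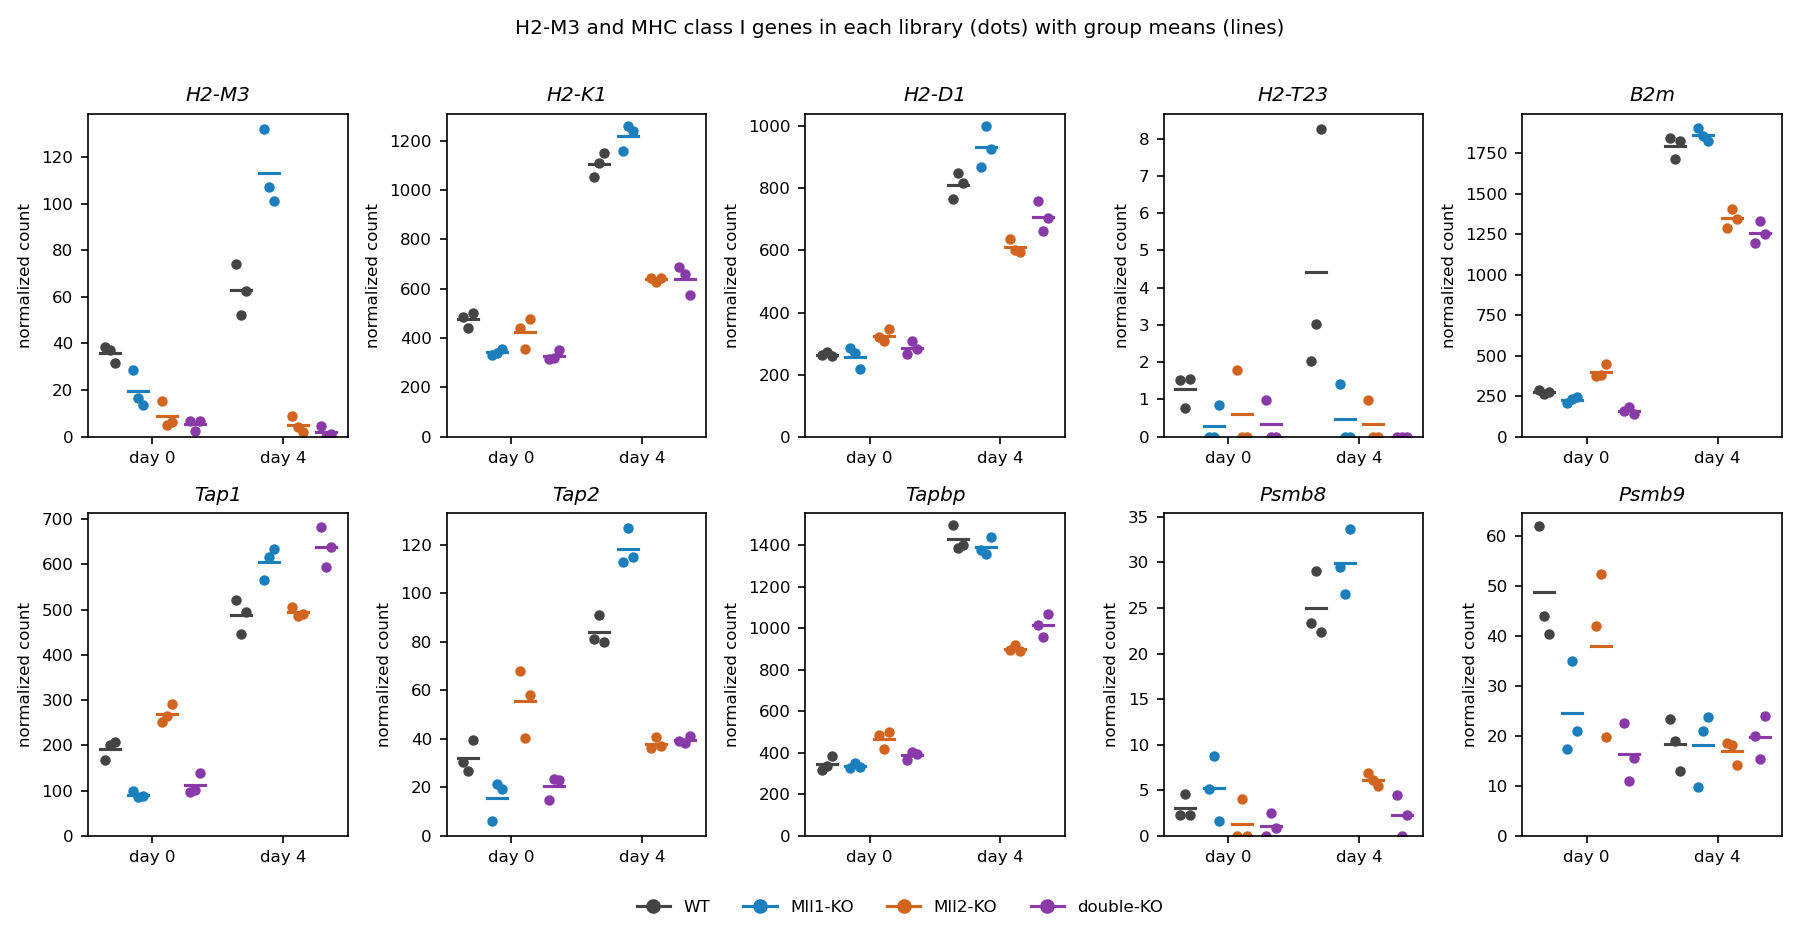
Normalized count (linear vertical axis from 0) of each of the 10 genes in every library (dots) with the group mean (line), for 4 genotypes at day 0 and day 4, with 3 libraries each. In day 4 the Mll2-KO and double-KO libraries of H2-M3 lie between 0 and 8.82, while those of WT lie between 52.1 and 74.2.

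H2-M3 was highest in day 4 Mll1-KO cells and lowest in day 4 double-KO cells. In day 4 WT libraries it was 74.2, 52.1 and 62.4, and in day 4 Mll1-KO libraries 132, 107 and 101. In day 4 Mll2-KO libraries it was 8.82, 4.08 and 2.18, from 15 reads in all, and in day 4 double-KO libraries 4.48, 0 and 1.14, from 5 reads. All 6 of these libraries lay below every WT and Mll1-KO library of that day. At day 0 the libraries held 38.3, 37.2 and 31.8 in WT, 28.8, 16.6 and 13.5 in Mll1-KO, 15.2, 4.84 and 6.1 in Mll2-KO, and 6.9, 2.53 and 6.88 in double-KO. Every mutant library of day 0 lay below the WT libraries. Ordered by group mean, day 4 Mll1-KO (113 ± 16.6), day 4 WT (62.9 ± 11), day 0 WT (35.8 ± 3.45) and day 0 Mll1-KO (19.6 ± 8.1) did not overlap with their neighbours in this order. From there down each group overlapped the next: day 0 Mll1-KO, day 0 Mll2-KO (8.72 ± 5.66), day 0 double-KO (5.44 ± 2.52), day 4 Mll2-KO (5.03 ± 3.42) and day 4 double-KO (1.87 ± 2.33).

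The day 0 libraries played no part in the choice of H2-M3, and there it could be tested. H2-M3 fell by 2.07 on the log2 scale in Mll2-KO against WT (95% interval -3 to -1.13, adjusted p = 0.00079) and in double-KO against WT by 2.6 (-3.54 to -1.67, adjusted p = 5.7e-05). Log2 values here are limma's difference of mean log2(normalized count + 1), which understates changes of genes near 0, and p-values were adjusted over all genes tested. H2-M3 passed the minimum of 10 in 3 libraries through WT and Mll1-KO, where it is high, which favours a difference. With no minimum the adjusted p was 0.0022 for Mll2-KO and 0.00023 for double-KO. Against Mll1-KO, H2-M3 also fell in double-KO, by 1.7 (-2.64 to -0.77, adjusted p = 0.0047, and 0.01 with no minimum). Against Mll2-KO the double-KO value of -0.54 (-1.47 to 0.39, adjusted p = 0.34) did not pass the threshold of 0.05. The Mll1-KO value against WT at day 0, -0.9 (-1.83 to 0.03), had an adjusted p of 0.12, and of 0.018 when the fit held only these groups.

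At day 4 the Mll1-KO libraries of H2-M3 all lay above those of WT, with a difference of 0.84 (-0.09 to 1.78). The WT libraries of this comparison also entered the choice of H2-M3, so no test is given. Whether the day 4 Mll1-KO libraries entered that choice too is not stated, so they are treated alike. As a description, the change of H2-M3 from day 0 to day 4 was 0.79 in WT, 2.53 in Mll1-KO, -0.69 in Mll2-KO and -1.41 in double-KO. The day 4 differences from WT were -3.55 in Mll2-KO and -4.8 in double-KO, and that of double-KO against Mll1-KO was -5.64. With a pseudocount of 5 these were -2.8, -3.34 and -4.15.

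H2-T23 was near the floor in every group and passed the count minimum on neither day. Its highest values were 2.03, 3.01 and 8.25 in the day 4 WT libraries, from 12 reads. No other library exceeded 1.79, and the day 4 double-KO libraries held no read, which allows up to 3 over the group. No test was made for H2-T23.

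Differentiation of WT cells came with higher values of both classical chains, B2m, the transporter and tapasin, and lower Psmb9. The question was how the class I pathway moves as these stem cells leave pluripotency. H2-K1 rose from 475 ± 31.1 to 1104 ± 49.8 (log2 1.22, adjusted p = 1.4e-13) and H2-D1 from 264 ± 7.35 to 810.2 ± 42.3 (1.61, adjusted p = 6e-16). B2m libraries held 287, 266 and 276 at day 0 and 1845, 1715 and 1821 at day 4, a rise of 2.69 (2.53 to 2.86, adjusted p = 1.1e-21). The B2m groups lay far apart relative to their spread. Tapbp rose from 346 ± 36.3 to 1427 ± 58.8 (2.05), Tap1 from 192 ± 20.8 to 487 ± 37.2 (1.34) and Tap2 from 32.3 ± 6.67 to 84.2 ± 6.1 (1.37, adjusted p = 0.00015). Psmb8, the inducible LMP7 subunit of the immunoproteasome, was 3.06 ± 1.3 at day 0 and 24.9 ± 3.61 at day 4 (2.71). It passed the minimum only through the day 4 WT and Mll1-KO libraries, where it is high, so it had to differ from the other groups and enters no count here or below. With no minimum its adjusted p was 0.00039. Psmb9, the inducible LMP2 subunit, fell from 48.8 ± 11.6 to 18.5 ± 5.23 (-1.37, adjusted p = 0.0013). Of the 7 members tested without H2-M3 and Psmb8, 6 were called higher and 1 lower. Over all 15114 genes tested, 43% were called higher and 39.9% lower. The members' median was 1.37, and that of all genes 0.04. Medium, serum and retinoic acid changed together between the days and cannot be told apart, and the marker sums above moved with them. Their part was not tested.

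The same 7 members were followed in the mutants. In Mll1-KO cells 6 of 7 were called higher and none lower (43.7% and 40.4% of all genes), in Mll2-KO cells 5 were higher and 1 lower (41.9% and 39.6%), and in double-KO cells 6 were higher and none lower (43.2% and 40.1%). B2m rose in each, by 3.02 in Mll1-KO, 1.75 in Mll2-KO and 2.97 in double-KO. Tap2 rose by 3 in Mll1-KO, from 15.7 ± 8.3 to 118 ± 7.69, and by 0.94 in double-KO (adjusted p = 0.0054, and 0.17 after quantile scaling). In Mll2-KO Tap2 went from 55.4 ± 14 to 38 ± 2.39 (-0.5, -1.12 to 0.11, adjusted p = 0.12). That value was called lower by edgeR (adjusted p = 0.029), DESeq2 (0.033), quantile scaling (0.023), and without day 0 Mll2-KO replicate 2 (-0.71, adjusted p = 0.05). The Psmb8 values were 2.5 in Mll1-KO, 2.06 in Mll2-KO and 0.48 (-0.78 to 1.75) in double-KO. Psmb9 fell in Mll2-KO by 1.02 (adjusted p = 0.013), a call lost without any of day 0 Mll2-KO replicates 1 and 2 and day 4 Mll2-KO replicate 3 (adjusted p = 0.051 to 0.094). In Mll1-KO Psmb9 went from 24.6 ± 9.33 to 18.2 ± 7.39 (-0.44, adjusted p = 0.27).

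**Figure D2:**
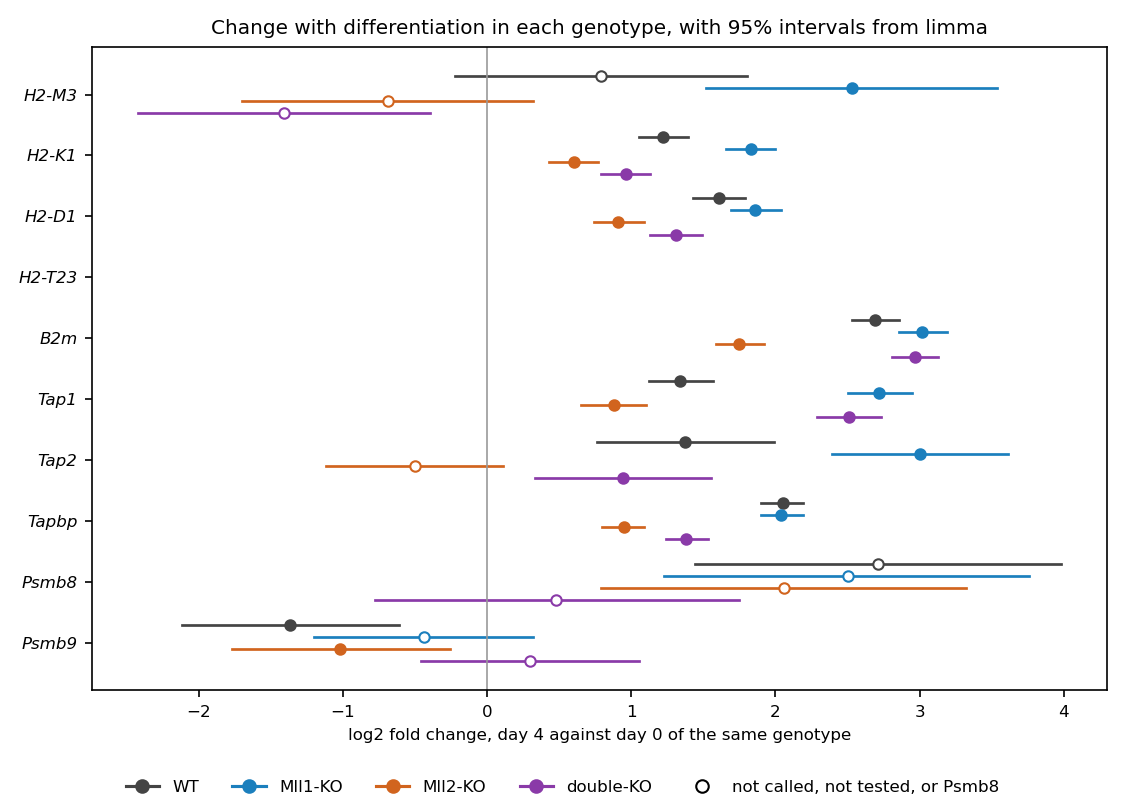
Log2 fold change from day 0 to day 4 within each genotype for the 10 genes, with 95% intervals from limma, where open dots mark values not called or not tested and all values of Psmb8. B2m lies between 1.75 and 3.02 in the 4 genotypes, and H2-T23 has no value because it did not pass the count minimum. Values of H2-M3 are a description, also the filled one in Mll1-KO, and their intervals do not allow for its choice.

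In stem cells at day 0, loss of Mll1 came with lower values of the classical chain H2-K1 and of both TAP subunits. H2-K1 libraries held 484, 441 and 501 in WT and 331, 337 and 356 in Mll1-KO, a fall of 0.47 (-0.68 to -0.27, adjusted p = 0.00054). Tap1 libraries held 168, 201 and 207 in WT and 98.8, 85.9 and 87.7 in Mll1-KO, a fall of 1.07 (adjusted p = 4.1e-06). These groups did not overlap for either gene. Tap2 fell by 1.14 (adjusted p = 0.017) and Psmb9 by 1 (adjusted p = 0.03). H2-D1 (-0.05), Tapbp (-0.03) and B2m (-0.28, adjusted p = 0.052) did not pass, although B2m was called by edgeR (0.041) and DESeq2 (0.046). Of the 7 members tested without H2-M3, 4 were called lower and none higher, against 18.7% and 21.3% of 13984 genes. Their median was -0.47, that of all genes 0. The Tap2 call was lost without WT replicate 3 (-0.99, adjusted p = 0.08) or Mll1-KO replicate 1 (-0.62, 0.14). The Psmb9 call was lost without WT replicate 1 or 2 or Mll1-KO replicate 1 or 3 (adjusted p = 0.055 to 0.13), and in the same day 0 cells the endoderm marker sum was 681 to 715 in Mll1-KO against 5727 to 6354 in WT, whose part was not tested.

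Loss of Mll2 at day 0 came with rises of B2m, Tap1, Tapbp and H2-D1, while H2-M3 fell. B2m libraries held 372, 379.7 and 448 in Mll2-KO, all above the WT libraries, a rise of 0.53 (0.3 to 0.76, adjusted p = 0.00056). Tap1 rose from 192 ± 20.8 to 269 ± 20.7 (0.49, adjusted p = 0.0075) and Tapbp from 346 ± 36.3 to 468 ± 44.1 (0.44, adjusted p = 0.00059). H2-D1 rose from 264 ± 7.35 to 325 ± 19.6 (0.29, adjusted p = 0.026), a call lost without WT replicate 1 or 3 or Mll2-KO replicate 3 (adjusted p = 0.065 to 0.086). Tap2 was 55.4 ± 14 against 32.3 ± 6.67 (0.75, -0.02 to 1.52, adjusted p = 0.1) and was called by edgeR (0.041) and DESeq2 (0.038). H2-K1 (-0.17) and Psmb9 (-0.43) did not pass. Thus 4 of 7 members were called higher and none lower, against 22.8% and 24.3% of all genes, with a median of 0.44.

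In the day 0 double-KO, H2-K1, B2m, Tap1 and Psmb9 were lower than in WT. H2-K1 fell to 328 ± 21.9 (-0.53, adjusted p = 0.00011), Tap1 to 112 ± 21.9 (-0.78, adjusted p = 9.3e-05) and Psmb9 to 16.4 ± 5.92 (-1.55, adjusted p = 0.001). B2m libraries held 159.8, 182 and 140.1, all below WT, a fall of 0.79 (-1.02 to -0.56, adjusted p = 5e-06). Tap2 (-0.64, adjusted p = 0.15), Tapbp (0.17) and H2-D1 (0.11) did not pass. This gave 4 of 7 lower and none higher against WT, where 27.1% and 26.6% of all genes were called. Against Mll1-KO only B2m of the 7 was called, lower by 0.51 (adjusted p = 0.00095), so 1 fell and none rose, against 22% and 18.9% of all genes. The endoderm marker sum at day 0 was 749 to 839 in double-KO, 4731 to 5258 in Mll2-KO and 5727 to 6354 in WT, and its part was not tested. Against Mll2-KO, 6 of 7 fell and none rose, against 24.3% and 23.4% of all genes. B2m fell there by 1.31, Tap1 by 1.27, Tap2 by 1.39 and H2-K1 by 0.36, all past the threshold, while H2-D1 was -0.19 (adjusted p = 0.15). The Tapbp fall of 0.27 and the Psmb9 fall of 1.12 against Mll2-KO were each lost without 1 of several libraries. For Tapbp these were Mll2-KO replicates 1 and 3 and double-KO replicate 1 (adjusted p = 0.07 to 0.083), and for Psmb9 they were Mll2-KO replicates 1 and 2 and double-KO replicate 2 (0.051 to 0.086). These comparisons share libraries with those above and are not independent of them.

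**Figure D3:**
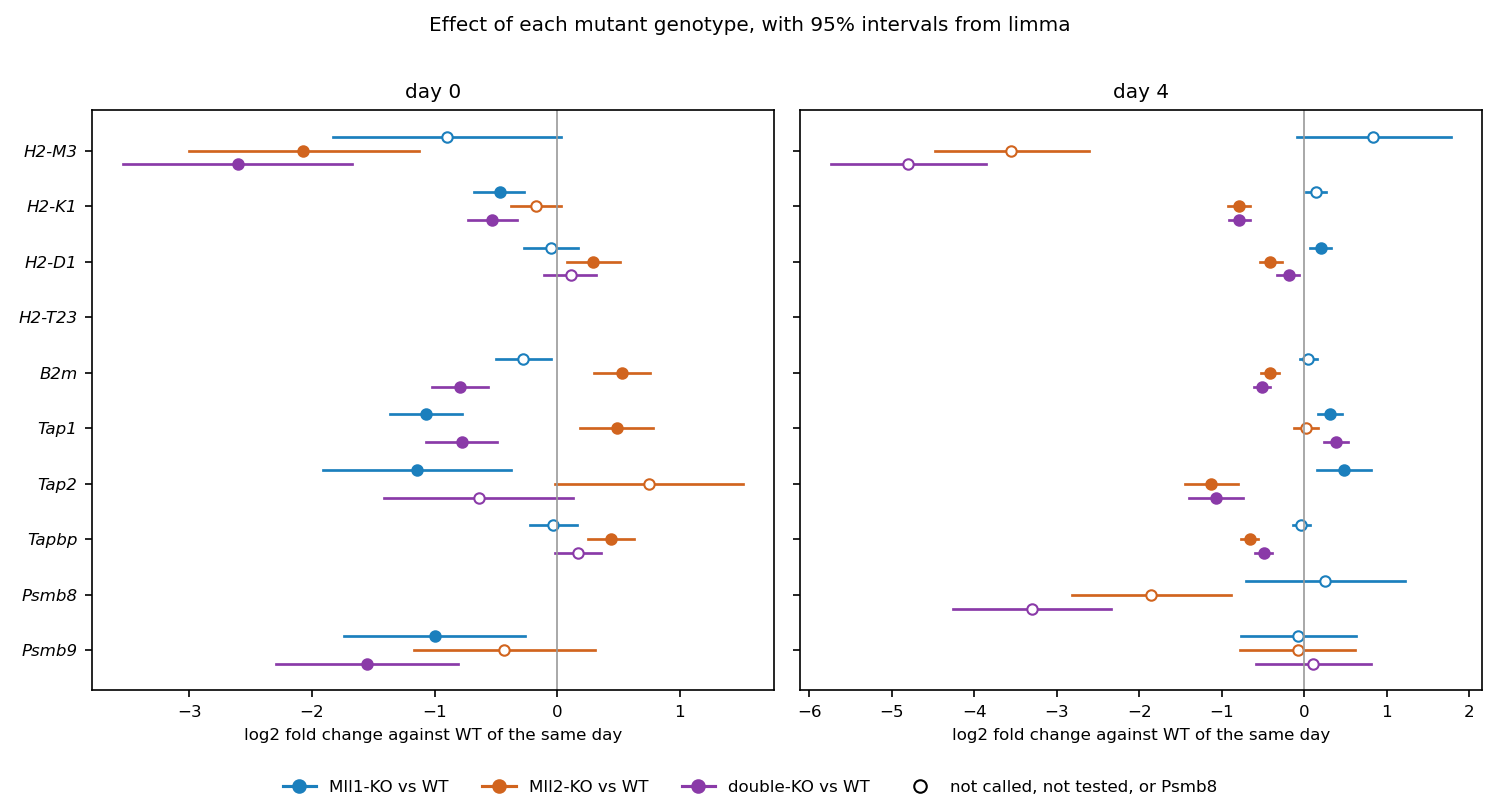
Log2 fold change of each mutant genotype against WT of the same day, with 95% intervals from limma, at day 0 (left) and day 4 (right), where open dots mark values not called or not tested and all values of Psmb8. Mll2-KO values of B2m lie at 0.53 on day 0 and -0.41 on day 4. Day 4 values of H2-M3 are a description, and their intervals do not allow for its choice.

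After differentiation, loss of Mll2 came with lower class I chains, B2m, Tap2 and tapasin, and with no called change of Tap1. The H2-K1 libraries held 1052, 1109 and 1151 in WT and 644, 625 and 644 in Mll2-KO, a fall of 0.79 (-0.92 to -0.66, adjusted p = 1.3e-10). Tap2 libraries held 81.3, 91.2 and 80.1 in WT and 36.3, 40.8 and 37.1 in Mll2-KO, a fall of 1.13 (-1.45 to -0.8, adjusted p = 2.4e-06). Neither gene's groups overlapped. Tapbp fell from 1427 ± 58.8 to 901 ± 16.2 (-0.66, adjusted p = 1.2e-10), B2m from 1794 ± 69.3 to 1347 ± 60.3 (-0.41, adjusted p = 2.1e-07) and H2-D1 from 810.2 ± 42.3 to 611 ± 23.5 (-0.41, adjusted p = 1.3e-05). Psmb8 was 24.9 ± 3.61 in WT and 6.14 ± 0.703 in Mll2-KO (-1.86), a difference that the minimum favoured. With no minimum its adjusted p was 0.0042. Tap1, the partner of Tap2 in the transporter, was 487 ± 37.2 in WT and 494 ± 10.4 in Mll2-KO (0.02, -0.12 to 0.17). Psmb9 was 18.5 ± 5.23 and 17 ± 2.49 (-0.08, -0.78 to 0.62). Of 7 members tested without H2-M3 and Psmb8, 5 fell and none rose, against 20.3% and 25.4% of 14303 genes, and the medians were -0.41 for the members and 0.04 for all genes. The pluripotency and endoderm marker sums given above were higher in these Mll2-KO libraries than in WT, and their part in the result was not tested.

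Loss of Mll1 alone at day 4 came with small rises. Tap1 rose from 487 ± 37.2 to 605 ± 35.6 (0.31, adjusted p = 0.00098), Tap2 from 84.2 ± 6.1 to 118 ± 7.69 (0.48, adjusted p = 0.019) and H2-D1 from 810.2 ± 42.3 to 932 ± 66.7 (0.2, adjusted p = 0.017). H2-K1 (0.14, adjusted p = 0.073), B2m (0.05), Tapbp (-0.04) and Psmb9 (-0.07) did not pass. That made 3 of 7 higher and none lower, against 16.5% and 19.2% of all genes. The H2-D1 and Tap2 calls were lost with all 24 libraries in the fit (adjusted p = 0.086 and 0.24), without WT replicate 1 (adjusted p = 0.085 and 0.058) or Mll1-KO replicate 2 (0.12 and 0.08), and that of Tap2 also without WT replicate 3 (0.063). H2-K1 was called with edgeR (0.036), and the marker sums of both lists were lower in Mll1-KO than in WT, with their part not tested.

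The day 4 double-KO showed the falls of Mll2-KO together with a rise of Tap1. H2-K1 was 641 ± 57.9 (-0.79 against WT, adjusted p = 9.1e-11), B2m 1259 ± 67.9 (-0.51), Tap2 39.5 ± 1.4 (-1.07) and Tapbp 1013 ± 54.9 (-0.49). Psmb8 was 2.25 ± 2.24 (-3.3), from 6 reads. Tap1 libraries held 683, 593 and 638 against 520.3, 447 and 495 in WT, without overlap, a rise of 0.39 (0.24 to 0.53, adjusted p = 5.3e-05). H2-D1 at 709 ± 48.3 fell by 0.19 (adjusted p = 0.015), a call lost with all 24 libraries in the fit (adjusted p = 0.072) and without WT replicate 2 (0.078) or double-KO replicate 2 (0.091). In all 5 of 7 were lower and 1 higher than WT, against 23.3% and 27.6% of all genes. In the same libraries the mesenchyme marker sum was 15533 to 16317 against 7018 to 7658 in WT. Most of it was Col3a1, and of the 9 mesenchyme markers 5 were called higher and 3 lower. The pluripotency and endoderm sums were lower than in WT, and the part of all these markers was not tested. Against Mll2-KO the double-KO values of H2-K1 (0, -0.12 to 0.13), Tap2 (0.05), B2m (-0.1) and Psmb9 (0.19) did not pass. Tap1 was higher by 0.37 (adjusted p = 0.00015), H2-D1 by 0.21 and Tapbp by 0.17, so 3 of 7 rose and none fell, against 19.4% and 20.9% of all genes. Psmb8, apart from that count, was lower by 1.44 (adjusted p = 0.016), and its call was lost with edgeR (0.11), DESeq2 (0.16) and without double-KO replicate 2 (-0.75, adjusted p = 0.13). The H2-D1 call was lost without double-KO replicate 1 (0.068) and that of Tapbp without double-KO replicate 3 (0.072), and with all 24 libraries in the fit H2-D1 (0.06), Tapbp (0.073) and Psmb8 (0.075) all lost theirs.

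Mll2 was lost in cells with MLL1 (Mll2-KO against WT) and in cells without it (double-KO against Mll1-KO), and these comparisons share no library. At day 4 the same 5 of 7 members fell in both, and none rose in either, while 15.8% of all genes were called lower in both. In double-KO against Mll1-KO, 23.7% of all genes were called lower and 31.1% higher. H2-K1 fell by 0.79 with MLL1 and by 0.93 without it, B2m by 0.41 and 0.56, and H2-D1 by 0.41 and 0.39. Tap2 fell by 1.13 and 1.55 and Tapbp by 0.66 and 0.46, while Tap1 was 0.02 and 0.07. Whether these pairs differ was not tested. At day 0, 4 members rose with MLL1 and 1 fell without it. That member, B2m, was called in both with opposite signs, 0.53 with MLL1 and -0.51 without it.

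**Figure D4:**
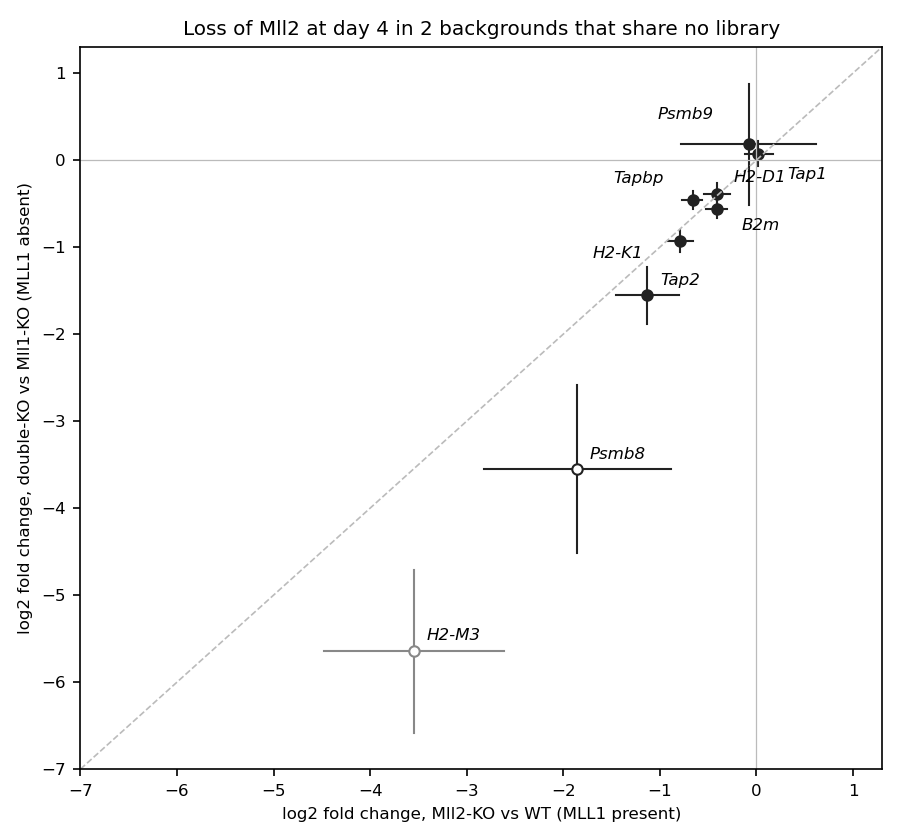
Day 4 log2 fold changes after loss of Mll2 with MLL1 present (horizontal, Mll2-KO against WT) and absent (vertical, double-KO against Mll1-KO), with 95% intervals from limma and a dashed line of equal values. Tap2 lies at -1.13 and -1.55 and Tap1 at 0.02 and 0.07, and H2-M3, chosen by such values, and Psmb8, which passed the minimum only where it is high, are open and shown as a description. The H2-M3 intervals do not allow for that choice.

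The effect of losing Mll2 differed between the days for most members. The difference of effects, day 4 minus day 0, was called lower for 6 of 7 members and higher for none, and 36.3% of all genes were called in either direction. It was -1.87 for Tap2 (-2.74 to -1.01, adjusted p = 0.001), -1.1 for Tapbp, -0.94 for B2m (-1.17 to -0.71, adjusted p = 3.1e-07), -0.7 for H2-D1, -0.62 for H2-K1 and -0.46 for Tap1. For B2m, Tapbp and H2-D1 a called rise at day 0 stood against a called fall at day 4. The day 0 call of H2-D1 was lost when some single libraries were left out. The Tap1 difference was lost without day 0 WT replicate 1, day 0 Mll2-KO replicate 3 or day 4 WT replicate 1 (adjusted p = 0.054 to 0.071). The effect of losing Mll1 moved the other way for 4 of 7 members, where 34% of all genes were called. It was 1.63 for Tap2, 1.38 for Tap1 (adjusted p = 9.5e-08), 0.62 for H2-K1 and 0.33 for B2m, and that of B2m was lost without any of day 0 WT replicate 1, day 0 Mll1-KO replicate 1, day 4 WT replicate 2 and day 4 Mll1-KO replicate 1 (adjusted p = 0.053 to 0.082). For H2-M3 this Mll1 difference was 1.74, given without a test because the day 4 WT libraries entered its choice. The double-KO effect changed for 3 of 7 members, against 39.4% of all genes, with 1.17 for Tap1, 1.66 for Psmb9 and -0.66 for Tapbp. For Psmb8 it was -2.23, with an adjusted p of 0.044 and of 0.056 with no minimum, and it was not called by edgeR (0.26) or DESeq2 (0.18), nor without any of day 0 WT replicates 1 and 3, day 0 double-KO replicates 2 and 3, day 4 WT replicates 1, 2 and 3 and day 4 double-KO replicate 2 (0.06 to 0.16).

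Other class I chains were read from a list of 19, of which 16 were in the table. At day 4, 6 passed the count minimum, and in Mll2-KO 4 fell and 1 rose (median -1.18), in double-KO 4 fell and none rose (-0.93), and in Mll1-KO 1 fell and 1 rose (0.26). Over all genes tested at day 4, 20.3% fell and 25.4% rose in Mll2-KO, 23.3% and 27.6% in double-KO, and 19.2% and 16.5% in Mll1-KO, which are also the shares for the lists below. H2-Q4, a Qa-2 region chain, went from 275 ± 6.47 in WT to 91.9 ± 3.79 in Mll2-KO (-1.57, adjusted p = 1.6e-10) and 112 ± 25.3 in double-KO (-1.32), and rose to 365 ± 10 in Mll1-KO (0.41, adjusted p = 0.012). H2-Q2, which like Psmb8 reached the minimum in all 3 libraries only in WT and Mll1-KO, was 60.6 ± 5.6 in WT and 8.15 ± 2.29 in Mll2-KO (-2.77), and is among the 4. In day 0 WT, H2-T22 averaged 65.5 ± 14.3, and it fell to 13.3 ± 7.3 in Mll1-KO (-2.34, adjusted p = 0.012) and to 10.8 ± 9.35 in double-KO (-3.3). Among class I-like chains outside the complex, Cd1d1, which presents lipids, stood at 70 ± 0.81 in day 4 WT and fell to 19.8 ± 3.27 in Mll2-KO (-1.78) and 21.6 ± 5.01 in double-KO (-1.67). In that list 7 of 10 measured genes were tested at day 4, with 5 lower and 2 higher in Mll2-KO, 2 lower and 2 higher in double-KO, and none called in Mll1-KO. H60b is among the falls in both, at 55.6 ± 9.63 in WT, 9.12 ± 3.64 in Mll2-KO and 5.57 ± 1.82 in double-KO. Like H2-Q2, it reached the minimum in all 3 libraries only in WT and Mll1-KO, which favours a difference.

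Among peptide trimming and loading genes, Erap1 and Tapbpl were the 2 that fell in day 4 Mll2-KO and in double-KO. Erap1, the aminopeptidase that trims class I peptides in the endoplasmic reticulum, was 396 ± 42.3 in WT, 147 ± 23.6 in Mll2-KO (-1.43, adjusted p = 8.9e-11) and 170 ± 13.8 in double-KO (-1.21). Tapbpl, the tapasin-related TAPBPR, fell from 52.5 ± 7.6 in WT to 24.3 ± 1.29 in Mll2-KO (-1.07) and 19.4 ± 5.18 in double-KO (-1.42). Of the 12 genes of this list 2 fell and 6 rose in Mll2-KO, 2 fell and 7 rose in double-KO, and 6 fell and none rose in Mll1-KO. The rises included Uggt1 (0.26) and Calr (0.25) in Mll2-KO, and Lnpep (0.4) and Uggt1 (0.29) in double-KO. With differentiation of WT cells 9 rose and 3 fell, led by Erap1 (2.87), where 43% and 39.9% of all genes did. Of 20 proteasome and activator genes, 18 fell and 2 rose in WT from day 0 to day 4, and the genes that rose were the PA28 activator subunits Psme2 (1.01) and Psme1 (0.65). In day 4 Mll2-KO these were lower, Psme2 by -0.3 and Psme1 by -0.25, while 4 of the 20 genes rose.

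Regulators of class I genes were called in both directions. Of 19 tested at day 4, 4 fell and 3 rose in Mll2-KO (median 0.04), close to the shares of all genes for falls. In double-KO 3 fell and 7 rose (0.1), and in Mll1-KO 1 fell and 9 rose (0.23). Rfx5, a subunit of the complex that binds the X box of MHC promoters, fell from 302 ± 16.1 in WT to 176 ± 12.4 in Mll2-KO (-0.77, adjusted p = 5.8e-08) and 206 ± 3.66 in double-KO (-0.55). Nlrc5, the transactivator of class I genes, averaged 15.1 or less in every group; it was named for its role after its values were seen. At day 0, 17 regulators were tested: 4 fell and 3 rose in Mll2-KO, 6 and 5 in double-KO, and 3 and 4 in Mll1-KO. Over all genes 24.3% fell and 22.8% rose in Mll2-KO, 27.1% and 26.6% in double-KO, and 18.7% and 21.3% in Mll1-KO. In day 0 WT, Irf1 averaged 293 ± 2.96, and it fell to 153 ± 27.2 in Mll2-KO (-0.95, adjusted p = 3.4e-06). Rfxap, another subunit of the complex that holds Rfx5, averaged 204 ± 16.7 in day 0 WT. It fell to 92.8 ± 7.69 in Mll2-KO (-1.13), 74.4 ± 22.2 in double-KO (-1.49) and 131 ± 7.39 in Mll1-KO (-0.63). Rfxank (0.36) and Rela (0.36) rose in day 0 Mll2-KO, and Irf3 rose in Mll1-KO (0.42) and double-KO (0.68). Irf8 stood at 90.3 ± 10.7 in day 0 WT and fell to 27.9 ± 7.15 in Mll1-KO (-1.68) and 22.3 ± 5.63 in double-KO (-2). Of 9 interferon receptor and kinase genes at day 4, 1 fell and 3 rose in Mll2-KO, 6 rose and none fell in double-KO, and 1 fell and 6 rose in Mll1-KO.

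Among the genes ranked, the 3 whose values followed H2-M3 most closely were not class I genes. Over the 24 libraries, among 12856 genes ranked (those whose highest group mean reached 50), Pearson's r on log2(normalized count + 1) was 0.937 for Igsf10, 0.931 for Dnaja4 and 0.931 for 5730409E04Rik, the 3 highest. These r describe libraries that fall into groups and share their size factors, so no p is given. Those libraries include the day 4 ones by which H2-M3 was chosen, which favours genes with the same fall. Igsf10, a gene of the immunoglobulin superfamily, was 227 ± 22.6 in day 4 WT, 269 ± 14.3 in Mll1-KO, 8.53 ± 2.41 in Mll2-KO and 3.53 ± 2.09 in double-KO. Dnaja4, a co-chaperone gene, was 129.7 ± 6.47, 164 ± 12.5, 23.8 ± 4.58 and 14.5 ± 3.89 in the same groups. They lie on chromosomes 3 (Igsf10), 9 (Dnaja4) and 4 (5730409E04Rik). Among the other class I members r with H2-M3 was 0.515 for H2-K1 (rank 676), 0.437 for Tap2 (rank 933), 0.231 for Tapbp, 0.213 for H2-D1, 0.201 for B2m and 0.066 for Tap1. Psmb8, Psmb9 and H2-T23 stayed below a mean of 50 in every group and were not ranked.

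**Figure D5:**
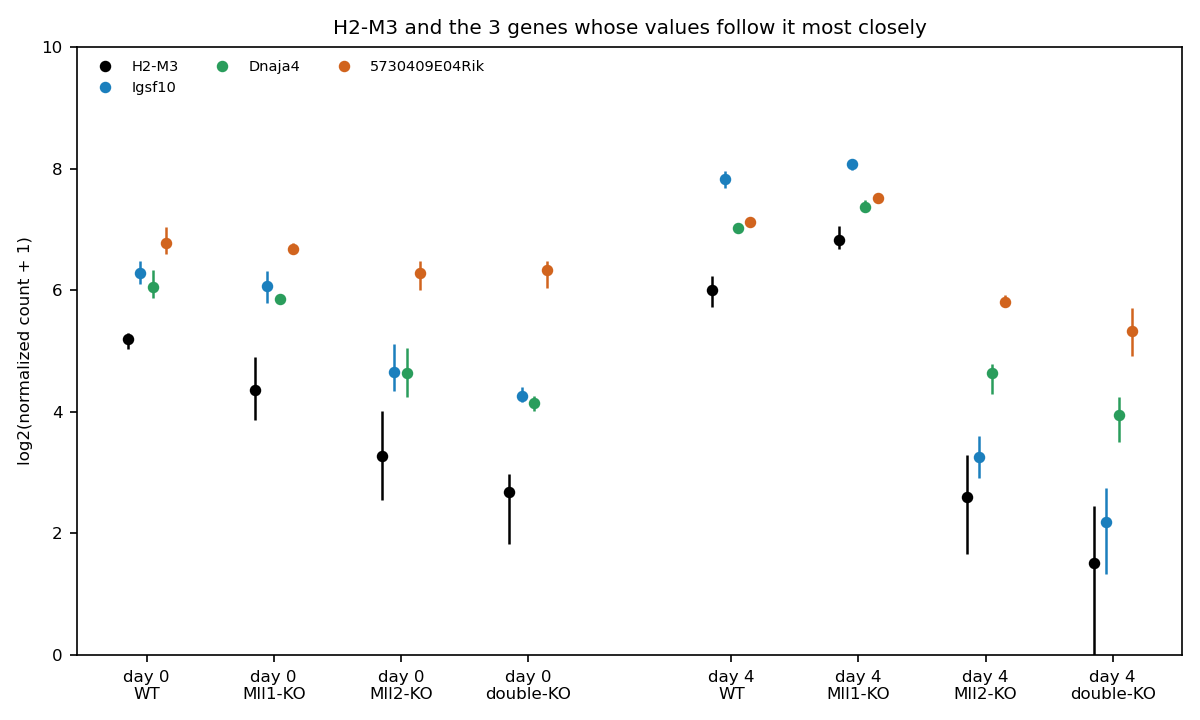
Group mean (dot) and range of the 3 libraries (line) of H2-M3 and the 3 genes with the highest r to it, as log2(normalized count + 1), in the 8 groups. H2-M3 runs from 1.87 in day 4 double-KO to 113 in day 4 Mll1-KO before the log is taken, and all 4 genes are lower in day 4 Mll2-KO and double-KO than in day 4 WT. The choice of H2-M3 and the ranking by r favour that pattern.

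Of the 6 nearest measured neighbours of H2-M3, 2 rose and 1 fell in day 4 Mll2-KO, where 25.4% and 20.3% of all genes did. On the side of the lower coordinates, Gabbr1, 195 kb away, was 422 ± 28.9 in day 4 WT and 454 ± 46.8 in Mll2-KO (0.1, adjusted p = 0.34). Zfp57, at 259.6 kb, rose from 788 ± 34.7 to 980.1 ± 44.1 (0.32, adjusted p = 4.2e-05). H2-M5, another class I chain at 281 kb, rose from 35.4 ± 5.96 to 55.1 ± 1.69 (0.64, adjusted p = 0.026) in Mll2-KO and fell to 20.9 ± 6.23 in Mll1-KO (-0.76, adjusted p = 0.011), in each case opposite in sign to H2-M3. On the other side the nearest genes that passed the count minimum at day 4 lay 3601 kb or more away. There 9130008F23Rik (0.1) and Cenpq (0.18) were not called in Mll2-KO, and Cd2ap fell by 0.13 (adjusted p = 0.019). In double-KO 9130008F23Rik was lower than in WT (-0.8, adjusted p = 6.8e-05).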

How the data were processed

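RNA was measured in 24 libraries (polyA RNA, TruSeq stranded kit, per the labels' protocols). The deposited signal is a table of normalized counts for 19953 genes, whose values behave as gene counts divided by 1 factor per library. The mm10 build, the aligner STAR 2.7.10a, the quantifier RSEM 1.3.1 and DESeq2 1.34.0 are named in the submitters' processing notes, beside Trim Galore 3.4. The annotation used is not given in the sources used here. Dividing each column by its smallest value above 0 gave whole numbers for 100% of values (tolerance 1e-06), which served edgeR and DESeq2 as read counts; since RSEM estimates counts, these may be rounded estimates. The day 0 WT columns carry an unexplained letter in their names and were taken as that group because no other WT column of that day exists.

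The main test was limma 3.58.1 (R 4.3.3) with a trend on log2(normalized count + 1), for genes reaching 10 in 3 or more libraries: 13984 at day 0, 14303 at day 4 and 15114 across days. The fit held the 12 libraries of a day, or all 24 across days, and p-values were Benjamini-Hochberg adjusted over all genes, with calls at 0.05. H2-T23 failed this minimum on both days and Psmb8 at day 0, so 8 of the 10 members were tested at day 0 and 9 at day 4. Alternatives were other pseudocounts, minima, scalings and libraries in the fit, a replicate block, DESeq2 1.42.0, edgeR 4.0.16 (TMM) and the omission of single libraries. The test was run on simulated data, with changes only in Mll2-KO against WT and only in genes whose WT mean was at least 50. Genes with lower counts and differences of effects between days were not covered by it. The members, pathway lists, marker lists and motifs were chosen with earlier results of these data known. Genes named besides the members were Kmt2a and Kmt2b, up to 2 called rises and 2 called falls per list and comparison whose higher group mean reached 50, of which a selection is printed, the 5 genes most correlated with H2-M3 (the first 3 are printed), and its 3 nearest measured genes on each side. Some results under this rule are not reported here.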

Additional observations from a re-analysis of the deposited data

Results flagged for a closer look

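Effects of a mutant genotype that differed between day 4 and day 0 are listed here by member, from limma's test of the difference itself, in log2 units as the day 4 effect minus the day 0 effect.

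The Mll2-KO effect was lower at day 4 by -0.62 for H2-K1, -0.7 for H2-D1, -0.94 for B2m, -0.46 for Tap1, -1.87 for Tap2 and -1.1 for Tapbp. The Mll1-KO effect was higher at day 4 by 0.62 for H2-K1, 0.33 for B2m, 1.38 for Tap1 and 1.63 for Tap2. Tap1 and Tap2 in Mll1-KO were called lower than WT at day 0 and higher at day 4. The double-KO effect differed by 1.17 for Tap1, -0.66 for Tapbp, -2.23 for Psmb8 and 1.66 for Psmb9. Psmb8 passed the count minimum only through day 4 WT and Mll1-KO. Its day 0 values came from 12 reads in the 3 WT libraries and 4 reads in the 3 double-KO libraries, and edgeR and DESeq2 did not call the difference. All of these differences are set against the same WT libraries, so they are not independent of each other.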

How the results depend on the processing

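Counts of called members other than H2-M3, here with Psmb8 included, changed by over 1.5 times in few settings. With all 24 libraries in the fit, 3 members rather than 1 were called in double-KO against Mll1-KO at day 0, 1 rather than 3 in Mll1-KO against WT at day 4, and 1 rather than 4 in double-KO against Mll2-KO at day 4. Leaving out 1 library gave 2 to 4 called members in Mll1-KO against WT at day 0, lowest without Mll1-KO replicate 1, and 1 to 4 in Mll1-KO against WT at day 4, lowest without WT replicate 1 or Mll1-KO replicate 2. No member value called in the main fit or in the alternative changed sign in the settings run. Sign changes of tested values called in neither fit were not tracked. Replicate numbers did not pair libraries: residuals of same-numbered libraries correlated with a median r of 0.003 at day 0 and 0.027 at day 4. With a replicate block, 6 members were called in Mll2-KO against WT at day 4 and 4 at day 0, as without it. The block changed no call of a member other than H2-M3. Fits without the WT libraries at day 0, chosen after seeing the data, gave 1 and 6 called members in double-KO against Mll1-KO and Mll2-KO, as with those libraries in the fit. The H2-M3 change in WT between days was 0.35 after quantile scaling. The H2-M3 difference of double-KO effects was -1.35 with a pseudocount of 5. Depth limits H2-T23 and Psmb8, and H2-M3 in cells without MLL2. The causes of the changes with the settings were not tested.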
